A study of Mus musculus with 6 samples.

Results

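The mitochondrial genome carries 37 of the 52636 genes counted in each library, and its transcripts are described here in kidney glomeruli, the tufts of capillaries where the kidney filters blood, of young and aged mice. Members were chosen as all genes that GENCODE M21 (mouse build GRCm38) places on the mitochondrial chromosome, chrM. They comprise 13 protein-coding genes, 2 ribosomal RNA (rRNA) genes and 22 transfer RNA (tRNA) genes. The study compared bulk RNA-seq of 3 libraries labelled young with 3 labelled aged. Glomeruli were captured with magnetic beads perfused through the animal, and stranded mRNA libraries were prepared from total RNA with a kit that selects polyadenylated RNA. All animals were untreated. The labels give neither age in weeks, strain, sex nor genotype, and nothing states that replicates were separate animals, so p-values measure only the spread between these libraries.

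Each mitochondrion holds copies of a small circular genome, and that genome is transcribed from both strands into long precursors. The tRNAs lie between most of the other genes, and their excision frees the mRNAs and rRNAs on either side. Its proteins are core subunits of oxidative phosphorylation: complexes I, III and IV, which pump protons, and the ATP synthase, which uses the gradient. Every other subunit, and all of complex II, comes from nuclear genes, as do the RNA polymerase and the ribosomal proteins that serve the organelle. In the kidney the proximal tubule is known for its density of mitochondria, and the glomerular filter for a lower one.

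Libraries held 21162919 to 26791412 gene counts, with 19833 to 20614 genes having at least 1 count. Markers of glomerular cells were present, among them all 18 podocyte and all 13 endothelial markers, whose summed levels are given below in CPM. CPM are counts scaled by library size, corrected with TMM factors, and values are listed throughout in the order of replicates 1, 2 and 3. Markers of the tubule were present too. Lrp2, the endocytic receptor megalin of the proximal tubule, stood at 195, 175 and 120 CPM in young and 589, 689 and 583 CPM in aged libraries. The labels call the cell type whole tissue, so no cell type was selected beyond the capture of glomeruli.

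Mitochondrial genes have near-identical copies in the nuclear genome, and the sequences show why counts of some members are uncertain. A block of chromosome 1, at chr1:24611535-24616197 (GRCm38, 4663 bases), carries 7 annotated copies on the minus strand. Projected from 5 copies that keep the same alignment, it corresponds to about bases 6381 to 11043 of chrM. Gm28439 and Gm10222 are slightly offset from those 5, so the end is approximate. The block spans 6 protein-coding and 5 tRNA genes in full. The copies Gm28661 of mt-Co2, Gm10925 of mt-Atp6, Gm28437 of mt-Co3, Gm28439 of mt-Nd4 and Gm10222 of mt-Nd4l were each 100% identical to their mitochondrial gene over the 681, 678, 783, 876 and 294 bases aligned. The opening 60 bases of mt-Co3, a complex IV subunit, and of its copy are printed, from GENCODE M21 transcripts, to show a stretch in which the pair is identical:
mt-Co3: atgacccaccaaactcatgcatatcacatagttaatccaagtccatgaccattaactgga
Gm28437: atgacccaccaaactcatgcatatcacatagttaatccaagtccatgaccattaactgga

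The copy of mt-Nd3, Gm28438, was 99.7% identical over 345 bases. Its sole difference over those bases, T3C counted from base 1 of the gene at the 5′ end, lies in the start codon. Both lines are shown, with that base in capitals, because within the 345 aligned bases only reads across it can separate the pair:
mt-Nd3: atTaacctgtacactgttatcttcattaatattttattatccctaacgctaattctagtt
Gm28438: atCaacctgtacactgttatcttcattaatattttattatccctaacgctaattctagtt

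At the edge of the block, Gm29216 covers the last 492 bases of mt-Co1 at 98.8% identity, with 6 differences: T1056A, C1057T, A1059G, A1060G, C1062A and A1066T. A copy on chromosome 2, Gm13340 at chr2:22588103-22589647, covers all 1545 bases of mt-Co1 at 97.6% identity with 37 differences. Bases 1054 to 1113 of mt-Co1 are shown to place these differences. Capitals in the mt-Co1 line mark bases that differ from either copy, and capitals in a copy's line mark bases that differ from mt-Co1:
mt-Co1: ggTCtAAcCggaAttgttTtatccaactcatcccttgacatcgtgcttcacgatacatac
Gm29216: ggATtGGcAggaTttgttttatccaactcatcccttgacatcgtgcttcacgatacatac
Gm13340: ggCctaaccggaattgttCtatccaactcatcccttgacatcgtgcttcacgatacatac

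Every stretch of 50 bases in each mitochondrial gene was looked up, on either strand, in all other annotated transcripts. Stretches found elsewhere made up 100% of mt-Co2, 99.9% of mt-Co3, 99.5% of mt-Atp6, 98.8% of mt-Nd4l and 98.0% of mt-Nd3. They made up 62.2% of mt-Nd4, 51.1% of mt-Co1, 8.2% of mt-Nd2 and 7.6% of mt-Nd5. None was found for mt-Nd1, mt-Cytb, mt-Nd6, mt-Atp8 or the rRNA gene mt-Rnr1, and 1.0% of the rRNA gene mt-Rnr2 was shared. For mt-Atp8 this search is incomplete: the stretch of chromosome 1 that would correspond to it (chr1:24614609-24614812) lies inside the block but in no annotated transcript.

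The protein-coding genes fell into a high and a low class with no gene between them. Mean counts over the 6 libraries were at least 51837 for 6 genes (mt-Cytb, mt-Nd1, mt-Nd4, mt-Co1, mt-Nd2 and mt-Nd5) and at most 185 for the other 7. The 5 genes with over 95% of stretches shared were all in the low class. mt-Nd6 and mt-Atp8 were in it too, with no shared stretch found. By contrast mt-Nd4 and mt-Co1, with over 50% shared, were in the high class. How the authors counted reads that match 2 places is not given in the sources used here, and its part in these levels was not tested.

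**Figure D1:**
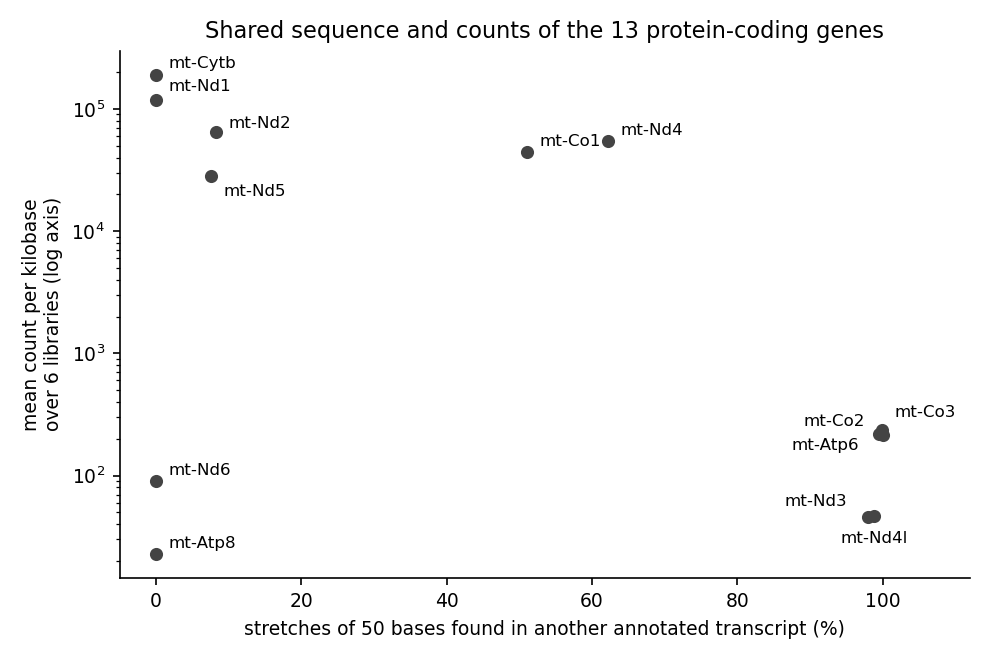
Mean count per kilobase of gene over the 6 libraries (log axis) against the percentage of each gene's 50-base stretches found in another annotated transcript; each point is 1 of the 13 protein-coding genes. The 5 genes at 98.0% to 100% shared lie low, as do mt-Nd6 and mt-Atp8 at 0% found, while 6 genes from 0% to 62.2% shared lie high.

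Protein-coding genes held 99.99% of all mitochondrial counts, and the 6 high genes alone held 99.9%. Per kilobase of gene, mt-Cytb (chrM:14145-15288, plus strand), the cytochrome b subunit of complex III, had the highest level in young libraries, 5722 ± 678 CPM per kilobase (SD, n = 3). It was followed by mt-Nd1 (3656 ± 481), mt-Nd2 (1988 ± 290), mt-Nd4 (1688 ± 190), mt-Co1 (1379 ± 121) and mt-Nd5 (944 ± 106). Neighbours in that order whose means differed by less than the sum of their SDs were mt-Nd2 and mt-Nd4, and mt-Nd4 and mt-Co1. In aged libraries the order was the same, with the same neighbours unresolved: 10188 ± 1837, 6291 ± 1397, 3441 ± 658, 2842 ± 418, 2338 ± 416 and 1435 ± 273 CPM per kilobase. With only unshared stretches of 50 bases taken as length, mean counts per kilobase over the 6 libraries followed another order. They were 198800 for mt-Cytb, 148900 for mt-Nd4, 125500 for mt-Nd1, 94000 for mt-Co1, 74300 for mt-Nd2 and 31610 for mt-Nd5. The places of mt-Nd4 and mt-Co1 thus depend on the length used, and which length applies was not tested. By mean count mt-Cytb ranked 2 among the 15721 genes tested, mt-Nd1 ranked 7 and mt-Nd5 ranked 23.

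In the low class the levels per kilobase were smaller by orders of magnitude. mt-Atp6 stood at 6.37 ± 1.48, mt-Co3 at 6.34 ± 1.07 and mt-Co2 at 5.35 ± 0.928 CPM per kilobase in young libraries, values that did not differ beyond their spread. mt-Nd6, at 4.30 ± 1.24, was within the spread of mt-Co2. mt-Nd3 (1.22 ± 0.522), mt-Nd4l (1.14 ± 0.803) and mt-Atp8 (mean 1.07) followed, within each other's spread. mt-Atp8 (chrM:7766-7969), which encodes a small ATP synthase subunit, held 11, 2 and 3 counts in young and 5, 4 and 3 in aged libraries, too few to be tested.

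Annotated mitochondrial genes can share bases, and counting may split or drop reads there. Of the members, 11 share bases with a gene of their own strand and 6 with a gene of the other strand. The longest overlap is shown because both genes in it were in the low class: the last 43 bases of mt-Atp8 are the opening 43 bases of mt-Atp6 (chrM:7927-7969), read in another frame, with the start codon of mt-Atp6 in capitals:
mt-Atp8/mt-Atp6 overlap: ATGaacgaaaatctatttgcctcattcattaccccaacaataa

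The lengths of 3 protein-coding genes, mt-Co3 (784 bases), mt-Nd4 (1378) and mt-Cytb (1144), are not multiples of 3. Mitochondrial mRNAs of this kind are known to end in an incomplete stop codon that polyadenylation completes. Their last 30 bases are given with the final base, a T, in capitals, to show the base to which the tail is joined:
mt-Co3: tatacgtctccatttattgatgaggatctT
mt-Nd4: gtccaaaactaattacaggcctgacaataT
mt-Cytb: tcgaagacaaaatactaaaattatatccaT

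Neither rRNA gene had more than 10 counts in any library. mt-Rnr1 (chrM:70-1024), the RNA of the small ribosomal subunit, held 4, 6 and 10 counts in young and 7, 9 and 6 in aged libraries. mt-Rnr2 (chrM:1094-2675), that of the large subunit, held 4, 8 and 1 counts in young and 7, 0 and 10 in aged libraries. Young and aged libraries overlapped for both genes, and neither was tested. Together they made up 0.002017% of the mitochondrial counts. In the intact organelle rRNA is abundant, and selection of polyadenylated RNA is designed to leave rRNA out. Whether rRNA reads were also filtered in processing is not given in the sources used here. The cause of these low counts was not tested, and they are not read as rRNA levels.

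The 22 tRNA genes held 217 counts over all 6 libraries, 0.006078% of the mitochondrial counts. No read was counted for 14 of them. Another 6 had fewer than 10 counts in every library, with 8 the highest, and 2 reached 10 in at least 1 library. The 14 genes on the plus strand held 216 of the counts and the 8 on the minus strand held 1. mt-Tl1 (chrM:2676-2750), a leucine tRNA between mt-Rnr2 and mt-Nd1, held 15, 20 and 20 counts in young and 30, 22 and 10 in aged libraries. mt-Ti (chrM:3706-3774), the isoleucine tRNA that follows mt-Nd1, held 6, 7 and 9 in young and 17, 14 and 6 in aged libraries. Young and aged libraries overlapped for both. These are the tRNA genes with most counts, and each abuts or overlaps mt-Nd1, so their whole sequences are given to show how short a target they are (75 and 69 bases):
mt-Tl1: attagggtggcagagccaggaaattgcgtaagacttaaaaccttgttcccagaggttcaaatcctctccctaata
mt-Ti: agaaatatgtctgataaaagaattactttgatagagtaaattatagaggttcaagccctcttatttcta

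mt-Tm, the methionine tRNA that precedes mt-Nd2, held 2, 8 and 1 counts in young and 8, 7 and 5 in aged libraries. The 5 others with any count (mt-Tv, mt-Td, mt-Tr, mt-Tt and mt-Tp) held at most 2 in a library. A library of this kind captures mature tRNAs poorly, and whether the counted reads came from tRNAs or from longer RNAs that span them was not tested.

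**Figure D2:**
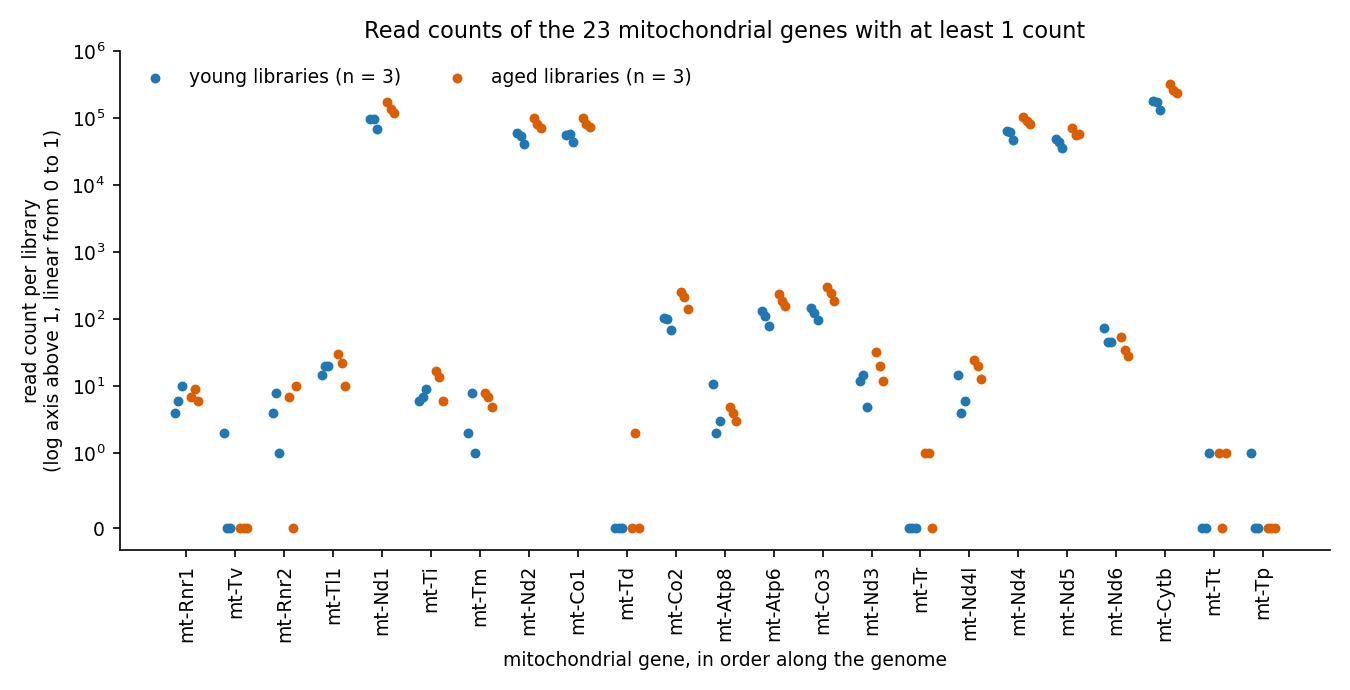
Read count in each library (log axis, linear from 0 to 1) of the 23 mitochondrial genes with at least 1 count, in their order along the genome; blue points are the 3 young and orange points the 3 aged libraries. The 6 high protein-coding genes lie at or above 35999 counts in every library, the low ones at or below 305, and rRNA and tRNA genes at or below 30.

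The mitochondrial genome took a larger share of all gene counts in aged glomeruli. It held 2.04%, 1.82% and 1.61% of them in the young libraries, and 3.75%, 2.68% and 3.01% in the aged ones. The lowest aged library lay above the highest young library, and aged replicate 1 was the highest of the 6. The aged mean was 1.72 times the young mean, and that ratio ranged from 1.56 to 1.85 when any 1 library was left out. In bulk tissue a change in the mix of cells and a change of RNA per cell cannot be told apart, which holds for every difference below.

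Of the 37 genes, 13 passed the filter on low counts (12 protein-coding genes and mt-Tl1) and 24 were not tested, among them mt-Atp8, both rRNA genes and 21 tRNA genes. In edgeR's quasi-likelihood test with Benjamini-Hochberg adjustment, 9 rose and 4 did not pass the threshold of 0.05. Of all 15721 genes tested, 40.1% were called, with 23.7% higher and 16.3% lower. No member was called lower by edgeR, DESeq2 or limma-voom, and 0 were lower at an unadjusted p under 0.05 in any of the 3. The median log2 fold change was 0.79 over the 13 tested members and 0.01 over all genes. Those 13 include mt-Nd3 and mt-Nd4l, which the filter kept only through their aged libraries. The 9 called changes ran from 0.60 to 1.24, and those 9 genes were also the ones whose aged libraries all lay above the young ones in CPM, which held for 28.7% of all genes.

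Marker levels of several cell types differed between the same libraries. All 24 tested proximal tubule markers of 25 rose, and their summed level was 2190 to 4420 CPM in young and 8540 to 12572 CPM in aged libraries, with Dpep1 listed at 0. Of 15 distal nephron markers 14 rose (1040 to 2255 against 4458 to 4699 CPM). All 18 podocyte markers fell (40974 to 45758 against 15961 to 21434 CPM). Of 17 tested macrophage markers 16 rose (1075 to 1203 against 5411 to 8655 CPM), with Itgam listed at 0. All 4 parietal epithelial markers rose (121 to 125 against 211 to 229 CPM). Endothelial markers overlapped in sum (18235 to 20217 against 16384 to 19017 CPM), with 1 of 13 higher and 8 lower, as did mesangial markers (3797 to 4518 against 4369 to 4651 CPM), with 4 of 9 higher and 4 lower. The part of the podocyte and macrophage differences in the mitochondrial result was not tested.

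A score, the log2 CPM averaged over the proximal tubule markers, was 6.181, 6.393 and 5.479 in young and 8.198, 8.148 and 7.671 in aged libraries. Differences between the ages made up 90.4% of its variance. With this score as a covariate in edgeR, 0 of the 13 tested mitochondrial genes were called, also at an unadjusted p under 0.05, and 8 kept a positive value. In that fit 0.617% of all genes tested were called, 0.509% higher and 0.108% lower. The score is so close to the age labels that age and the amount of tubule RNA cannot be told apart in these 6 libraries.

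Complex I, which takes electrons from NADH, has 7 mitochondrial subunits, and the 4 in the high class rose. mt-Nd1 (chrM:2751-3707), in the membrane arm next to the quinone site, stood at 3924, 3562 and 3010 CPM in young and at 7551, 5081 and 5431 CPM in aged libraries. Every aged library lay above every young one. The log2 fold change was 0.78 ± 0.16 (edgeR adjusted p 0.00395), or 1.72-fold, and here and below the value after ± is the SE with 3 libraries per group. mt-Nd2 (chrM:3914-4951), a proton-pumping subunit, stood at 2378, 2037 and 1776 CPM in young and 4349, 3069 and 3298 CPM in aged libraries. The groups did not overlap, and the change was 0.79 ± 0.15 (edgeR adjusted p 0.00258).

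mt-Nd4 (chrM:10167-11544), another pumping subunit, stood at 2577, 2347 and 2055 CPM in young and 4542, 3409 and 3797 CPM in aged libraries. The lowest aged value lay above the highest young value, with a log2 fold change of 0.75 ± 0.13 (edgeR adjusted p 0.00132). mt-Nd5 (chrM:11742-13565), at the far end of the membrane arm, stood at 1939, 1653 and 1571 CPM in young and 3080, 2091 and 2682 CPM in aged libraries. Here the gap between the groups was narrow, from young replicate 1 to aged replicate 2, and the change, 0.60 ± 0.14 (edgeR adjusted p 0.0082), was the smallest of the 9.

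The complex I genes of the low class did not pass. mt-Nd3 (chrM:9459-9806) held 12, 15 and 5 counts in young and 32, 20 and 12 in aged libraries, with a log2 fold change of 1.07 ± 0.47 (edgeR adjusted p 0.104). mt-Nd4l (chrM:9877-10173) held 15, 4 and 6 counts in young and 25, 20 and 13 in aged libraries, with 1.26 ± 0.51 (edgeR adjusted p 0.0752). Young and aged libraries overlapped for both. The mt-Nd4l difference passed without young replicate 1 (log2 fold change 1.98, edgeR adjusted p 0.0219) and with the counts of its nuclear copy added (1.21, edgeR adjusted p 0.0414). In the fit without that library the young counts left are 4 and 6, so the gene was kept by the filter only through its aged libraries. In the fits of all 6 libraries too, with or without the copy added, its young libraries alone were too low for the filter. The same held for mt-Nd3, which the filter kept only through its aged libraries. For mt-Nd4l, the adjusted p ran from 0.0219 to 0.233 over its 15 alternatives apart from the tubule score.

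For complex III, mt-Cytb is the sole mitochondrial subunit and carries the haems that pass electrons between the quinone sites. It stood at 7310, 6569 and 5759 CPM in young and 13998, 9935 and 11031 CPM in aged libraries. The groups did not overlap, and the log2 fold change was 0.83 ± 0.15 (edgeR adjusted p 0.00162), or 1.78-fold.

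All 3 mitochondrial subunits of complex IV, cytochrome c oxidase, rose. mt-Co1 (chrM:5328-6872), which holds the site where oxygen is reduced, stood at 2282, 2186 and 1921 CPM in young and 4319, 3065 and 3452 CPM in aged libraries, a log2 fold change of 0.76 ± 0.13 (edgeR adjusted p 0.00151). mt-Co2 (chrM:7013-7696), which receives electrons from cytochrome c, stood at 4.21, 3.8 and 2.97 CPM in young and 11.2, 8.20 and 6.68 CPM in aged libraries, with 1.24 ± 0.22 (edgeR adjusted p 0.00175). mt-Co3 (chrM:8607-9390), a structural core subunit, stood at 5.92, 4.67 and 4.32 CPM in young and 13.3, 9.49 and 8.69 CPM in aged libraries, with 1.08 ± 0.20 (edgeR adjusted p 0.00219). No aged library of the 3 genes fell within the young range, and in each gene aged replicate 1 was the highest.

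For the ATP synthase, mt-Atp6 (chrM:7927-8607), part of the proton channel, stood at 5.43, 4.14 and 3.45 CPM in young and 10.3, 7.10 and 7.24 CPM in aged libraries. The groups did not overlap, and the log2 fold change was 0.92 ± 0.22 (edgeR adjusted p 0.00816). The tRNA gene mt-Tl1 gave 0.23 ± 0.41 (edgeR adjusted p 0.692), and without aged replicate 1, the library with its highest count, the value was -0.17 (edgeR adjusted p 0.803, over a range of 0.35 to 0.954 across its 17 alternatives).

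**Figure D3:**
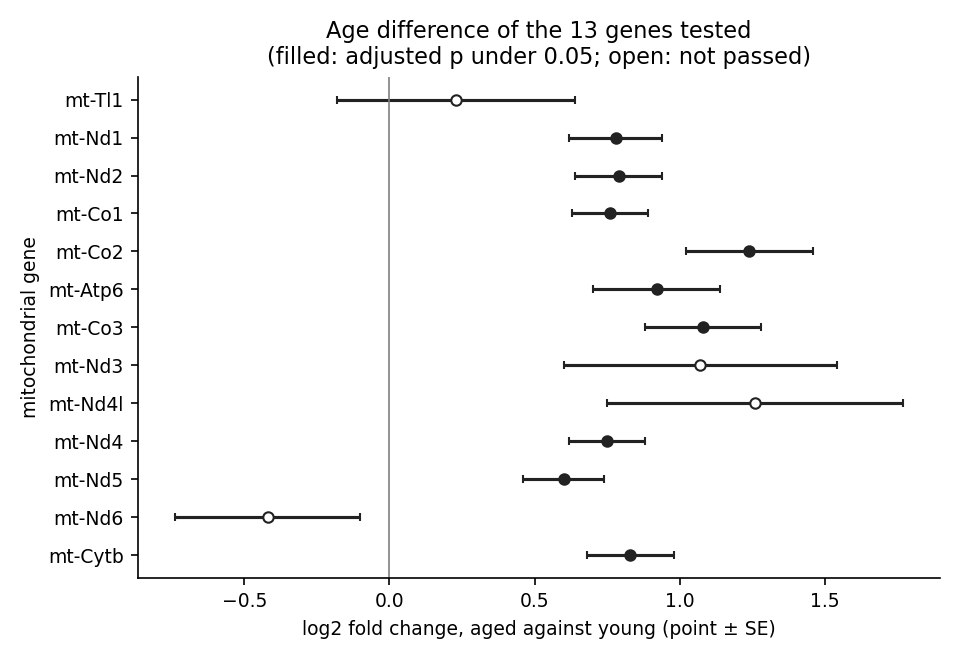
Log2 fold change of aged against young libraries (n = 3 each) for the 13 mitochondrial genes tested, as points with the standard error to either side; filled points passed an edgeR adjusted p of 0.05. The 9 filled points lie between 0.60 and 1.24, and mt-Nd6 alone has a negative value, -0.42.

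Of the 7 copies on chromosome 1, 5 were tested and 4 of them rose. Gm28437, the copy of mt-Co3, held 68, 46 and 45 counts in young and 142, 113 and 70 in aged libraries, with a log2 fold change of 1.09 ± 0.28 (edgeR adjusted p 0.0126). Gm10925, the copy of mt-Atp6, held 84, 68 and 52 counts in young and 120, 105 and 83 in aged libraries, with 0.67 ± 0.22 (edgeR adjusted p 0.0376). In CPM, every aged library lay above every young one for both copies. Gm28661 of mt-Co2 (1.01 ± 0.36, edgeR adjusted p 0.0483) and Gm29216 of mt-Co1 (0.94 ± 0.29, edgeR adjusted p 0.028) also passed, whereas Gm28439 of mt-Nd4 gave 0.62 ± 0.34 (edgeR adjusted p 0.18). Gm28438 of mt-Nd3 and Gm10222 of mt-Nd4l held at most 17 counts and were not tested. Of 15 alternatives apart from the proximal tubule score, the call was kept in 14 for Gm28437, 11 for Gm29216, 10 for Gm10925 and 6 for Gm28661. Without aged replicate 1 all 4 were lost, with edgeR adjusted p of 0.0532, 0.0845, 0.14 and 0.207 in that order (ranges over the alternatives: 0.00139 to 0.0532, 0.0205 to 0.0944, 0.0255 to 0.14 and 0.0318 to 0.207). Nearly all bases of each copy are also in its mitochondrial gene, so neither a mitochondrial nor a nuclear origin can be given to the copies' counts from the tables. The reverse does not hold for mt-Co1 and mt-Nd4, with 51.1% and 62.2% of stretches shared.

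With the counts of the 7 chromosome 1 copies added to their mitochondrial genes, a comparison added after the data were seen, 10 members rose, mt-Nd4l among them. The filter on low counts kept mt-Nd4l only through its aged libraries there too, so its call carries little weight. The log2 fold changes of the low-class genes called were 1.2 ± 0.23 for mt-Co2, 1.08 ± 0.20 for mt-Co3, 0.83 ± 0.20 for mt-Atp6 and 1.21 ± 0.41 for mt-Nd4l (SE; edgeR adjusted p 0.00248, 0.00248, 0.00853 and 0.0414). Of the 15716 genes tested in that comparison, 40.1% were called and 23.7% rose.

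mt-Nd6 (chrM:13552-14070), a complex I subunit, is the sole protein-coding gene read from the minus strand, and it alone of the 13 tested members had a negative log2 fold change. It held 73, 46 and 46 counts in young and 54, 35 and 28 in aged libraries, or 2.96, 1.73 and 2.01 CPM against 2.35, 1.33 and 1.31 CPM. The groups overlapped, and its log2 fold change of -0.42 ± 0.32 did not pass (edgeR adjusted p 0.334). The value was negative under all 17 alternatives, from -1.07 to -0.18. Its sequence is unlike that of the plus-strand genes, with 43.7% T and 6.0% C, and it overlaps the end of mt-Nd5 on the opposite strand. Whether the authors counted by strand is not given in the sources used here, so reads of mt-Nd5 and mt-Nd6 in that overlap may not be separated.

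Expressed as percentages of the mitochondrial protein-coding counts, which do not depend on scaling between libraries, the genes moved by unequal amounts. The aged mean was 0.885 to 1.11 times the young mean for the 6 high genes and mt-Atp6. It was 1.43 times for mt-Nd4l, 1.38 for mt-Co2, 1.24 for mt-Nd3, 1.23 for mt-Co3, 0.475 for mt-Atp8 and 0.429 for mt-Nd6, all from low counts. mt-Nd1 made up 19.1% ± 0.364 in young and 19.1% ± 0.83 in aged glomeruli (mean and SD, n = 3), mt-Nd2 11.3% ± 0.335 and 11.4% ± 0.228, and mt-Nd4 12.7% ± 0.0899 and 12.5% ± 0.454. For 4 of the 13 genes the ages did not overlap, 3 above and 1 below. Relative to the same mitochondrial counts, aged libraries lay all above the young for 8.98% of all genes tested and all below for 65.7%. mt-Cytb made up 35.8% in each young library and 37.0%, 37.2% and 37.1% in the aged ones, a small gap. mt-Co2 (0.0199% ± 0.00129 against 0.0276% ± 0.00444) and mt-Co3 (0.0271% ± 0.00179 against 0.0333% ± 0.00352) were also above. mt-Nd6 lay below, at 0.0145%, 0.00942% and 0.0125% in young and 0.00621%, 0.00498% and 0.0044% in aged libraries. mt-Nd5 had 9.42% ± 0.384 in young and 8.33% ± 0.618 in aged libraries, with aged replicate 3 inside the young range. The number of non-overlapping genes was 8 without young replicate 1.

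In edgeR with each library scaled to its mitochondrial protein-coding counts, a fit added after the data were seen, mt-Nd6 was the single member called. Its log2 fold change was -1.21 ± 0.37 (edgeR adjusted p 0.00202). With 1 library left out at a time the value lay between -1.37 and -1.06, with an adjusted p of 0.00167 to 0.0218. On that scale 74.2% of all 15721 genes were called, 8.85% higher and 65.3% lower, so a lower call is common there. None of the other 12 tested members was called on that scale, and 0 were higher at an unadjusted p under 0.05 in edgeR. The 6 high genes held 99.9% of the mitochondrial counts, so they were scaled largely to themselves. This fit could therefore hardly call them: mt-Cytb gave 0.05 ± 0.21, although its percentages did not overlap between the ages.

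**Figure D4:**
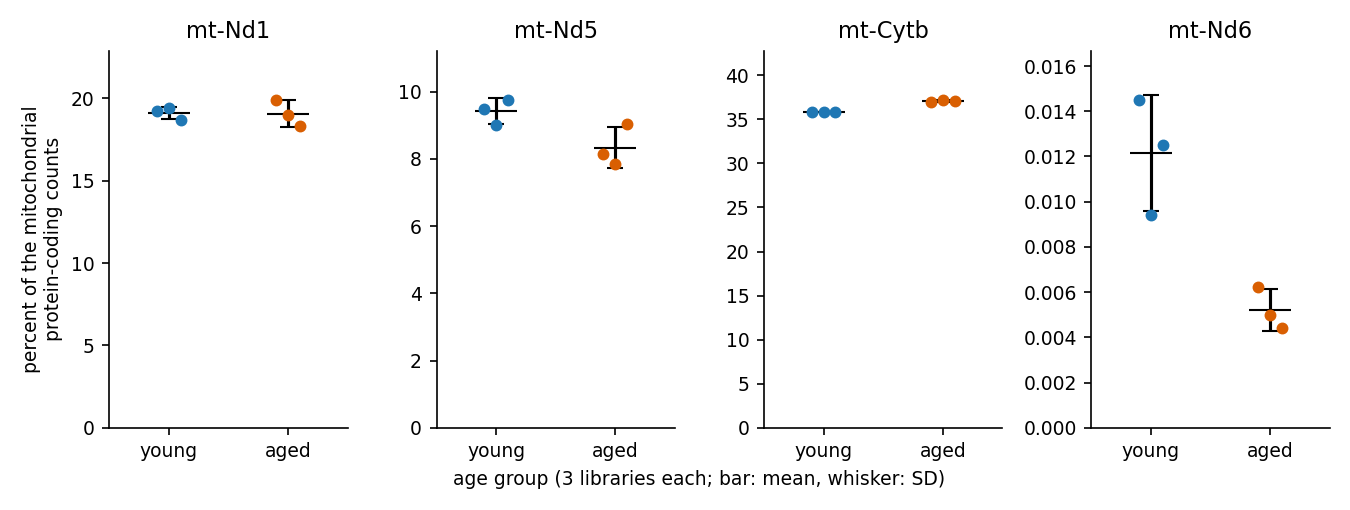
Percentage of the mitochondrial protein-coding counts held by mt-Nd1, mt-Nd5, mt-Cytb and mt-Nd6 in each library, with the mean (bar) and SD (whisker) of the 3 young and 3 aged libraries; each panel has its own axis from 0. mt-Nd1 averages 19.1% at both ages, mt-Cytb is slightly higher in aged libraries, and the 3 aged values of mt-Nd6 lie below all young ones.

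Some nuclear subunits of the same complexes also rose. Of 82 nuclear subunits of oxidative phosphorylation tested, 36 rose and 1 fell, against 23.7% and 16.3% of all genes, and their median log2 fold change was 0.23. By complex, 12 of 36 tested passed in complex I (median 0.18), 3 of 4 in complex II (0.41), 6 of 9 in complex III (0.32) and 7 of 18 in the ATP synthase (0.23), each of them higher. In complex IV, 8 of 15 rose and 1 fell (0.28). Among those 8 is Cox6a2, which held at most 18 counts in a library. It stood at 0.0405, 0.0752 and 0.175 CPM in young and 0.74, 0.683 and 0.467 CPM in aged libraries. The filter on low counts kept Cox6a2 only through its aged libraries, so its call carries little weight. The number that rose fell to 21 without young replicate 1, 22 without young replicate 3, 23 without aged replicate 1 and 21 without aged replicate 2. Ndufa13 and Cox4i1 are listed at 0 in every library, and both overlap other annotated genes. The marker sums given above moved between the same libraries, and with the tubule score as a covariate edgeR called 0 of the 265 genes tested in all 12 nuclear lists (5 higher and 6 lower at an unadjusted p under 0.05). In that fit only 0.617% of all genes tested were called, and the score is close to the age labels. The 0 therefore says little about these lists.

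Sdhb, the iron-sulphur subunit of complex II, which has no mitochondrial gene, stood at 98.6, 119 and 96.9 CPM in young and 168, 161 and 146 CPM in aged libraries, with a log2 fold change of 0.59 ± 0.09 (edgeR adjusted p 0.000866). Uqcrfs1, the Rieske protein of complex III, stood at 95.4, 101 and 84.3 CPM in young and 142, 144 and 129 CPM in aged libraries, with 0.56 ± 0.08 (edgeR adjusted p 0.000618). Both groups were separate in both genes. Ndufa10, an accessory subunit of complex I (0.48 ± 0.07, edgeR adjusted p 0.000769), and Atp5g3, a gene for the rotor ring of the ATP synthase (0.47 ± 0.08, edgeR adjusted p 0.00163), passed with similar sizes. In complex IV, Cox7a1, known as the muscle form of its subunit, rose from 1.23 ± 0.243 to 3.52 ± 0.646 CPM (SD, n = 3; edgeR adjusted p 0.00112). Cox4i2, an isoform of another subunit of this complex, fell from 7.53 ± 3.15 to 2.43 ± 0.259 CPM (edgeR adjusted p 0.00173).

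Within each library, the mitochondrial subunits of a complex were then set against its nuclear subunits, as the log2 ratio of summed counts per kilobase. For complex I it was 2.89, 2.58 and 2.46 in young and 3.4, 2.93 and 3.26 in aged libraries, a difference of the means of 0.55, with the groups just apart. For complex III it was 3.62, 3.28 and 3.24 against 4.04, 3.56 and 3.95, where aged replicate 2 lay below young replicate 1. For complex IV it was 1.08, 0.78 and 0.73 against 1.56, 1.1 and 1.43, likewise just apart. Its mitochondrial side is nearly all mt-Co1, with 44470 mean counts per kilobase, against 216.4 for mt-Co2 and 236 for mt-Co3. On its nuclear side Cox4i1 is listed at 0. The differences for complexes III and IV were 0.47 and 0.50. For the ATP synthase the ratio was -6.74, -7.57 and -7.60 in young and -6.56, -7.04 and -6.85 in aged libraries, overlapping, and it rests on the low counts of mt-Atp6 and mt-Atp8.

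**Figure D5:**
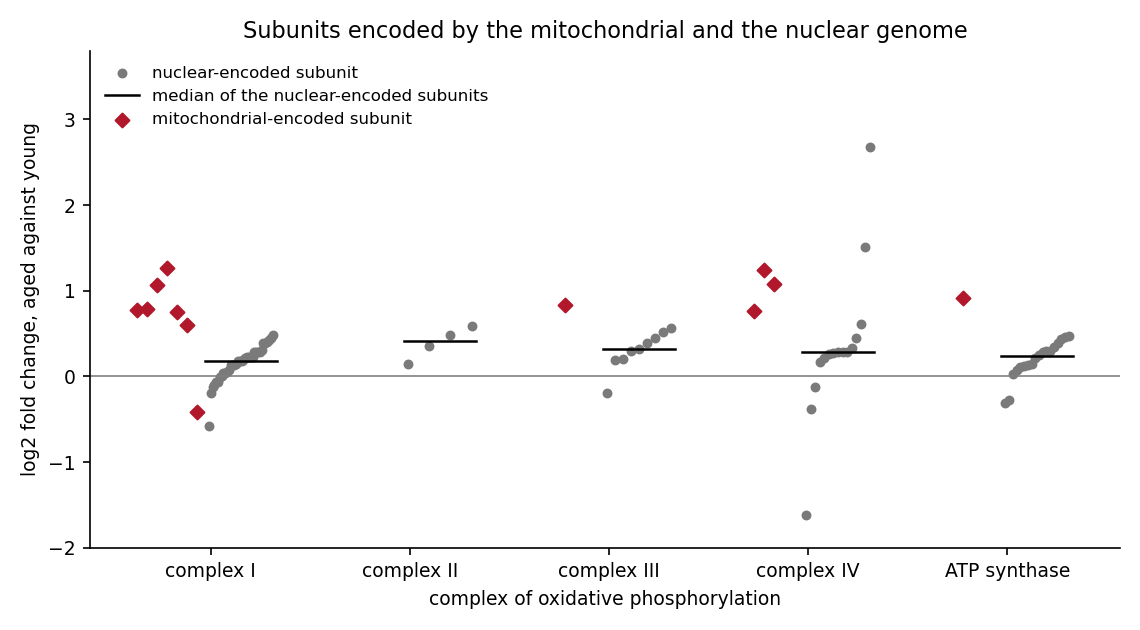
Log2 fold change of aged against young libraries for tested subunits of each complex; red diamonds are mitochondrial-encoded, grey points nuclear-encoded, and black lines the medians of the nuclear subunits. Medians run from 0.18 to 0.41, and the 9 mitochondrial subunits called higher lie at 0.60 or above, with mt-Nd6 at -0.42. mt-Nd3 and mt-Nd4l are drawn too, but they were not called and the filter kept them only through their aged libraries.

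Of 16 tested genes that copy and transcribe mitochondrial DNA, 1 rose and 2 fell, with a median log2 fold change of -0.11. For this and the following lists, the shares over all genes tested were 23.7% higher and 16.3% lower, with a median of 0.01. Polrmt, the mitochondrial RNA polymerase, stood at 20.4, 25.1 and 23.6 CPM in young and 24.7, 32.6 and 24.5 CPM in aged libraries, which overlapped (0.25 ± 0.13, edgeR adjusted p 0.178). Tfam, which packages the genome and starts transcription, stood at 40.8, 36.9 and 34.3 CPM in young and 36.3, 39.2 and 37.4 CPM in aged libraries (0.01 ± 0.09, edgeR adjusted p 0.927). Its partners at the promoter and in elongation, Tfb2m (-0.19 ± 0.18, edgeR adjusted p 0.453) and Tefm (0.13 ± 0.14, edgeR adjusted p 0.505), did not pass either. The same held for Polg, the DNA polymerase (-0.07 ± 0.08, edgeR adjusted p 0.485), and Twnk, the replicative helicase (0.06 ± 0.10, edgeR adjusted p 0.695).

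Top1mt, the mitochondrial topoisomerase that relaxes supercoils, fell from 216, 236 and 203 CPM in young to 86.5, 124 and 126 CPM in aged libraries, a log2 fold change of -0.96 ± 0.14 (edgeR adjusted p 0.000441). All aged values lay below the young range. Slc25a33, a carrier of pyrimidine nucleotides into the organelle, rose from 7.24 ± 0.781 to 10.8 ± 0.842 CPM (SD, n = 3; edgeR adjusted p 0.00786).

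Of 40 tested genes that process or degrade mitochondrial RNA, 6 rose and 2 fell (median 0.13), against 23.7% and 16.3% of all genes. Lrpprc, which binds and stabilises mitochondrial mRNAs, stood at 53.0, 50.2 and 48.5 CPM in young and 70.7, 69.6 and 65.8 CPM in aged libraries, without overlap (0.44 ± 0.07, edgeR adjusted p 0.000809). Its binding partner Slirp gave -0.06 ± 0.10 (edgeR adjusted p 0.69). Tfb1m, which methylates the small rRNA, fell by 0.61 ± 0.15 on the log2 scale (edgeR adjusted p 0.0112).

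Of 75 tested mitochondrial ribosomal protein genes, of 80 in all, 6 rose and 3 fell, with a median of 0.03, against 23.7% and 16.3% of all genes. Mrpl12 (0.66 ± 0.12, edgeR adjusted p 0.0024) and Mrpl48 (-0.47 ± 0.08, edgeR adjusted p 0.00109) had the smallest p in each direction. Among translation factors 3 of 10 passed, all higher, a share near that of all genes, led by the elongation factor Gfm1 (0.30 ± 0.06, edgeR adjusted p 0.00391). Among 20 genes of tRNA charging 1 rose and 1 fell. Gatb, a subunit of the enzyme that makes glutamine-charged tRNA, rose by 0.84 ± 0.10 (edgeR adjusted p 0.000158). Nars2, which charges the asparagine tRNA, fell from 98.4, 69.5 and 80.7 CPM in young to 21.1, 27.2 and 27.9 CPM in aged libraries (-1.70 ± 0.14, edgeR adjusted p 3.06e-05).

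Regulators of mitochondrial biogenesis rose in 6 of 12 tested, with a median of 0.34, while 23.7% of all genes rose. Ppargc1a, the coactivator PGC-1α, stood at 11.6, 12.9 and 9.30 CPM in young and 33.4, 28.7 and 29.3 CPM in aged libraries, a log2 fold change of 1.43 ± 0.13 (edgeR adjusted p 4.63e-05). Ppara, a nuclear receptor for fatty acids, stood at 5.88, 4.97 and 3.62 CPM in young and 23.1, 21.9 and 21.2 CPM in aged libraries (2.19 ± 0.16, edgeR adjusted p 1.79e-05). Both were clear of overlap. Ppargc1b, a related coactivator, passed narrowly (0.58 ± 0.18, edgeR adjusted p 0.0314), and its call was lost in 5 of the 6 sets that leave out 1 library, with an adjusted p of 0.0132 to 0.102 over its 15 alternatives apart from the tubule score. Of the nuclear genes named from the 12 lists, Ppargc1a, Ppargc1b, Ndufa13 and Cox4i1 overlap annotated genes on both strands. Ndufa10, Cs and Tomm20 overlap a gene on the same strand only. Cox6a2, Tfb2m, Polg, Twnk, Top1mt, Slc25a33, Lrpprc, Slirp, Tfb1m, Gfm1, Gatb, Nars2, Mrpl12 and Mrpl48 overlap at least 1 on the opposite strand only.

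Of 10 tested genes often taken as measures of mitochondrial content, 1 rose and 2 fell (median -0.07), against 23.7% and 16.3% of all genes. So few genes cannot set the list apart from all genes. Cs, citrate synthase, stood at 198, 208 and 202 CPM in young and 234, 219 and 219 CPM in aged libraries, apart but short of the threshold (0.14 ± 0.07, edgeR adjusted p 0.111). Slc25a5, an ATP and ADP carrier, rose by 0.68 ± 0.09 (edgeR adjusted p 0.00033), and Tomm20, an import receptor of the outer membrane, fell by 0.49 ± 0.08 (edgeR adjusted p 0.000953).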

How the data were processed

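Each library has a table in which the authors deposited, gene by gene, an unnormalized read count, the RPKM and the gene's width (per the file headers). RPKM and width served only to check the tables. Partek and the build GRCm38 are named in the submitters' processing notes, whereas the aligner, counter, annotation and use of strand are not given in the sources used here. Symbols, positions and sequences came from GENCODE M21 (GRCm38), which held 52489 of the 52636 genes. Copies were searched in its transcripts, as no genome sequence was used.

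Aged libraries were compared with young in R 4.3.3 by edgeR 4.0.16 (filterByExpr, TMM factors, glmQLFTest, no covariate), adjusting over all 15721 genes tested. Shares, compositions and ratios were not tested. Counting error alone limits precision little: 95% Wilson intervals of the mitochondrial share were no wider than 3.75% to 3.76%, and they ignore duplicated PCR reads.

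The members, gene lists and tests were chosen with earlier results of these data known. All members of the protein-coding and rRNA classes are named, tRNA genes by count, and from each nuclear list the most significant member that rose and that fell, plus 11 genes fixed by name. Alternatives were RLE, upper-quartile and total scaling, scaling without mitochondrial genes, other filters, thresholds and stretch lengths (36 and 100 bases), DESeq2 1.42.0, limma-voom (limma 3.58.1), a tubule score, a replicate block and omission of each library.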

Additional observations from a re-analysis of the deposited data

How the results depend on the processing

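The 9 mitochondrial genes called higher passed in all 16 alternatives apart from the proximal tubule score, and the count was 9 to 10 in every set that left out 1 library and 9 at an adjusted p of 0.01. The gene added in the set with 10 was mt-Nd4l, kept by the filter there only through its aged libraries. With that score as a covariate the count was 0. Of 265 genes tested in the nuclear lists, 0 were then higher and 0 lower, against 60 and 11 in edgeR without it (at an unadjusted p under 0.05, 5 higher and 6 lower with the score). Over all genes tested, 23.7% were higher and 16.3% lower without the score, and 0.509% and 0.108% with it. The higher share of the lists without the score was near that of all genes. Values that changed sign with the score were mt-Tl1 (-0.40), mt-Co2 (-0.10), mt-Atp6 (-0.07), mt-Nd3 (-2.18), Cox4i2 (0.17), Tfam (-0.25), Tefm (-0.16), Polg (0.09), Twnk (-0.22) and Mrpl12 (-0.02), and the cause was not tested. mt-Tl1 also changed sign without aged replicate 1 (-0.17, against 0.52 without aged replicate 3), and so did Twnk (-0.02). Tfam, at 0.01, changed sign with DESeq2 (-0.01), RLE factors (-0.01), upper-quartile factors (-0.03) and without young replicate 2 (-0.01), young replicate 3 (-0.07) or aged replicate 2 (-0.02), and was 0.07 without young replicate 1.

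The nuclear lists had 35 to 66 higher and 8 to 11 lower genes when 1 library was left out, with 35 without young replicate 1, 39 without young replicate 3, 37 without aged replicate 1 and 36 without aged replicate 2. At an adjusted p of 0.01 they had 30 higher and 6 lower, and at 0.1 they had 17 lower. Fewer libraries or another threshold enter those fits, and the shares over all genes in them are not given here. The number of genes whose composition did not overlap ran from 4 to 8 over the same omissions. The complex IV and ATP synthase ratios could not be computed without genes that share stretches, since none is left or too few counts remain. Same-numbered libraries deviated together with correlations of 0.011, 0.047 and 0.105, against -0.145 to 0.097 for the other pairs. With 3 libraries per group, these values cannot settle whether the numbers pair the libraries. With a replicate block the counts were 9 and 0 for mitochondrial genes and 65 and 10 for the nuclear lists, and mt-Nd6 relative to the mitochondrial counts was -1.21 ± 0.33. Each called mitochondrial gene had a smaller SE with the block, for mt-Nd1 0.10 against 0.16. mt-Nd3, mt-Nd4l and mt-Tl1 held at most 32 counts in a library, and the part of depth in their missed calls was not tested.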
